A study of Homo sapiens with 14 samples.

Results

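Of 5155 RING1B peaks listed in control DU145 cells, 2560 overlapped both a BMI1 peak and a RING1A peak but no H3K27me3 peak, by at least 1 bp in each case. They are called core sites without H3K27me3 here, and 401 of them also overlapped a control EED peak (EED-bound) while 2159 did not (EED-free). The sites were chosen by their overlap with the control lists of BMI1, RING1A and H3K27me3, which lay on 85.7%, 71.9% and 25.5% of all RING1B peaks, so overlap with these lists is a description and nothing is read from it. Another 903 RING1B peaks lay on BMI1, RING1A and H3K27me3 together (core sites on H3K27me3), and 1692 lacked BMI1 or RING1A (RING1B peaks outside the core). The proteins are there by the rule, and the mark that the RING1 proteins place was listed at a minority of sites. Neither uH2A antibody had a control peak at 1821 of the 2560 sites (71.1%, 95% Clopper-Pearson interval 69.3 to 72.9), against 78.2% of all RING1B peaks, so the lack of uH2A was no more frequent at these sites than over the whole list.

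DU145 is an established human prostate cancer cell line. Control cells carried a scramble construct and knockdown cells a stable EED knockdown, both selected with puromycin, and every knockdown library carries the same construct label, so that construct and the loss of EED cannot be told apart. Chromatin immunoprecipitation with sequencing (ChIP-seq) gave 14 peak lists, with 7 antibodies used once in control and once in knockdown cells, against EED, RING1A, RING1B, BMI1, H3K27me3 and, with a rabbit and a mouse antibody, ubiquitylated histone H2A (uH2A). There was 1 library per group, so replicates cannot check any difference, and every interval covers counting error only and treats peaks as independent. The libraries of EED and both uH2A antibodies form 1 set by their culture description, and those of RING1A, RING1B, BMI1 and H3K27me3 another. The EED list, of the protein knocked down, held 13082 peaks in control and 1372 in knockdown cells, and each of the other 6 antibodies also had fewer knockdown than control peaks. Depth is unknown, so list sizes and the shares that rest on them may move with it.

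Polycomb proteins keep developmental genes silent. In the classical order of events PRC2, with EED as a core subunit, places H3K27me3, which CBX proteins of canonical PRC1 read. RING1A and RING1B are the ubiquitin ligases of PRC1 and place the uH2A mark, and BMI1 (PCGF4) is a partner that stimulates them. PRC1 complexes with other subunits can also reach chromatin without H3K27me3, which is why sites with the ligases and no H3K27me3 are of interest. Sites are given by their hg19 position and not by gene, because annotation of that build was not used here.

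The sites were short. Their median length was 175 bp (quartiles 100 and 225), against 250 bp for core sites on H3K27me3 and 125 bp for RING1B peaks outside the core. EED-bound sites had a median of 200 bp and EED-free sites of 150 bp. Peak height, the signal as the authors' caller wrote it, had a median of 64.0 at the 2280 sites with a height above 0, and of 107 at core sites on H3K27me3. It was 71.9 at EED-bound and 62.6 at EED-free sites. The remaining 280 sites have a listed height of 0, and all lie on chromosomes 22, X and Y.

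The absence of H3K27me3 was seldom a matter of a few bases. The nearest control H3K27me3 peak was over 10000 bp away from 1653 sites (64.6%), and within 1000 bp of 237 (9.26%), with a median gap of 22012 bp. Over all RING1B peaks, 25.5% of which overlapped such a peak, 48.8% were over 10000 bp away and 6.98% within 1000 bp without overlap. The rule leaves out peaks on H3K27me3, so the sites are expected to lie further away than the whole list. Of the 1282 RING1B peaks outside the core without H3K27me3, 862 were over 10000 bp away. That share is no lower than that of the sites, so the distance was not particular to them. Just inside the rule, a site on chromosome 1 at 149208351 to 149208450 touched an H3K27me3 peak with 0 bp between them, and sites on chromosome 7 at 102255901 to 102255975 and chromosome 8 at 7879501 to 7879650 lay 25 bp from one. Just outside it, sites on chromosomes 1 (149024476 to 149024575), 4 (3597826 to 3597950) and 14 (47855326 to 47855400) shared 25 bp with H3K27me3. In all, 4 sites lay within 25 bp of such a peak and 7 core sites shared 25 bp or less with one.

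Core sites without H3K27me3 gathered in blocks. The median gap from a site to the nearest other was 1200 bp (quartiles 300 and 8375). Chained at gaps of up to 100 kb, the sites formed 397 blocks, of which 212 had 1 site and 101 had 5 or more, and these 101 held 2126 sites (83%). Other RING1B peaks were not chained, so whether the sites cluster more than the whole list was not tested. The sites were 166 of 235 RING1B control peaks in the largest block. They were 62 of 62 in a block on chromosome 19 and 45 of 128 in one on chromosome 4 (49114351 to 49337250). Chromosome 14 alone carried 502 sites, 19.6% of them, against 15.4% of all RING1B peaks. Chromosome 15 carried 244 sites, 9.53% against 6.87% of all RING1B peaks, and chromosome 21 carried 208, 8.12% against 7.14%. Chromosome 1 carried 309, which at 12.1% was below its 15.8% of all RING1B peaks, and chromosome 9 carried 163, 6.37% against 6.48%.

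**Figure D1:**
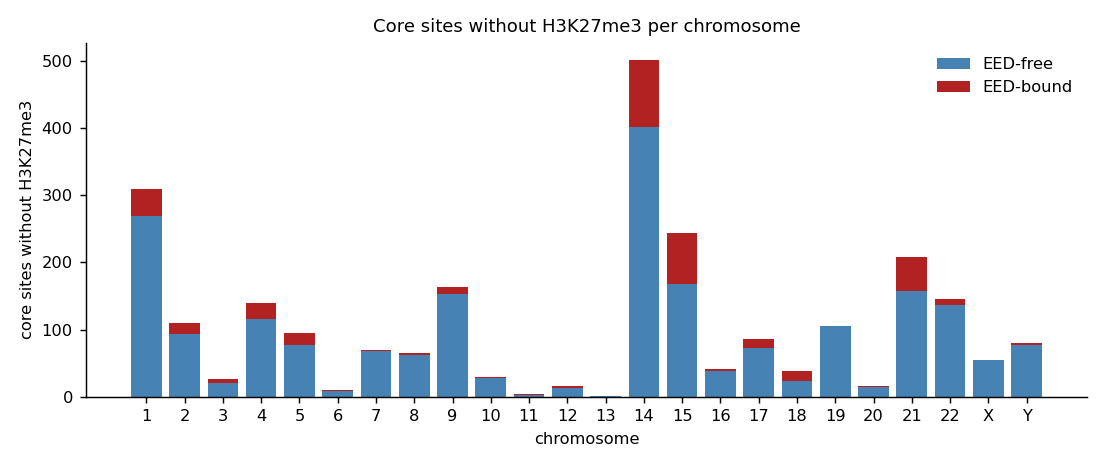
Number of core sites without H3K27me3 on each chromosome (bars), split into EED-free sites (blue) and EED-bound sites (red). Chromosome 14 has the tallest bar with 502 sites, and chromosomes 19 and X have no EED-bound site among 105 and 55.

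The 5 largest blocks held 568 sites (22.2%). The first spanned 742 kb on chromosome 14 (19411451 to 20153050) with 166 sites, and the second 482 kb on chromosome 15 (20249751 to 20731625) with 122. The next were on chromosome 14 (31421151 to 33441425, 117 sites) and on chromosome 21 (9826201 to 10205250 with 87 sites, and 11022926 to 11184725 with 76). Chromosomes 14, 15, 21 and 22 are acrocentric, but 22 holds none of the 5 largest blocks. Chromosome 13, also acrocentric, carried 1 site among 6 RING1B peaks. The sequence next to human centromeres is known to be rich in duplications and satellites, where a short read can align to more than 1 place. How far the blocks lie from a centromere was not measured. The sources used here do not give how such reads were treated, no input library was analysed here, and the part of repeated sequence in the results was not tested.

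Blocks differed in which libraries marked them. In the first block the control lists held 300 BMI1, 235 RING1B, 230 RING1A and 2 H3K27me3 peaks, and the knockdown lists 257, 11, 191 and 171. A block of 39.7 kb on chromosome 19 (36760126 to 36799850), named here after its values were seen, held 62 sites. Its control lists had 62 RING1B, 49 BMI1 and 45 RING1A peaks and no H3K27me3 peak, and its knockdown lists had 0, 53, 39 and 43 peaks of RING1B, BMI1, RING1A and H3K27me3. EED and the uH2A antibodies had 0 peaks there in both cell lines. Of the 101 blocks with 5 or more sites, 25, with 315 sites, had no control peak of EED or uH2A at all, and the 3 knockdown lists of these antibodies together had 1 peak in them. Because EED and uH2A are in 1 library set and the PRC1 proteins in the other, a difference between sets and a difference between antibodies cannot be told apart in these blocks.

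**Figure D2:**
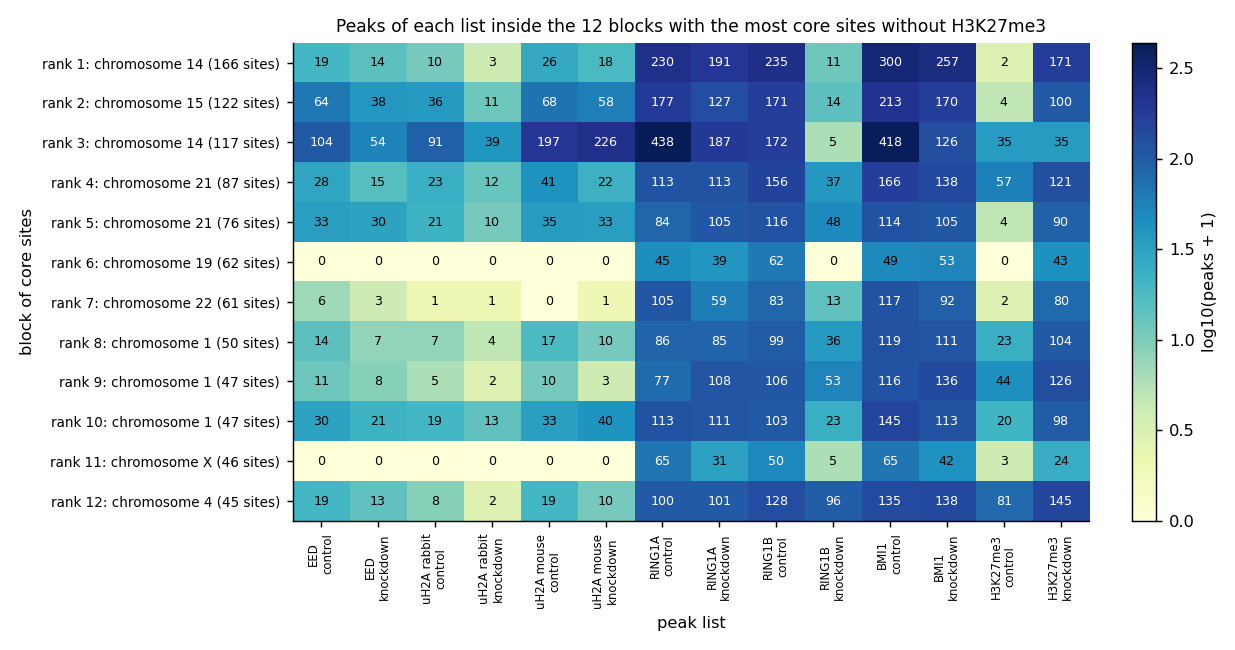
Number of peaks of each of the 14 lists (columns) inside the 12 blocks with the most core sites without H3K27me3 (rows, with chromosome and number of sites), coloured by log10(peaks + 1). RING1B has fewer knockdown than control peaks in each of the 12 blocks, for example from 235 to 11 in the first, and the blocks on chromosomes 19 and X have 0 peaks of EED and uH2A in both cell lines.

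EED, which the rule did not use, marked 15.7% of the core sites without H3K27me3 in control cells (401 of 2560, interval 14.3 to 17.1), against 13.2% of all RING1B peaks. Core sites on H3K27me3 had a share of 17.3%, and the difference of -1.61 percentage points had a Newcombe interval of -4.55 to 1.13, which includes 0. RING1B peaks outside the core had 7.27%, 8.39 points less (6.49 to 10.2). The EED shares of core sites with and without H3K27me3 were thus not separated beyond counting error.

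The uH2A mouse antibody marked 694 sites (27.1%, interval 25.4 to 28.9), against 18.9% of all RING1B peaks, and the rabbit antibody 326 (12.7%, 11.5 to 14.1), against 11.2%. The 2 antibodies differed in their order between the core classes. Sites without H3K27me3 had 3.74 points more of the mouse antibody than core sites on H3K27me3 (0.414 to 6.92) and 4.65 points less of the rabbit antibody (interval of the difference -7.54 to -1.96). Without chromosome 14 the mouse antibody marked 23.5% of the sites. Peaks outside the core were marked at 4.08% by the mouse and 5.67% by the rabbit antibody.

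EED-bound sites carried uH2A far more often than EED-free ones. The mouse antibody marked 345 of 401 EED-bound sites (86.0%) and 349 of 2159 EED-free sites (16.2%), a difference of 69.9 points (65.8 to 73.3). The rabbit antibody marked 241 (60.1%) and 85 (3.94%), a difference of 56.2 points (51.2 to 60.9). Within length classes of 75 to 100, 125 to 150, 175 to 250 and over 250 bp, the difference ran from 63.6 to 72.5 points for the mouse and from 48.7 to 61.0 points for the rabbit antibody. EED and uH2A come from the same library set, and its part in this difference was not tested.

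Taken by pattern, 228 sites had EED with both uH2A antibodies, 117 had EED with the mouse antibody alone, 13 had EED with the rabbit antibody alone and 43 had EED without uH2A. Among EED-free sites 296 had the mouse antibody alone, 53 both and 32 the rabbit antibody alone. The largest class, 1778 sites (69.5%), had neither EED nor uH2A, as did 76.1% of all RING1B peaks. EED-bound sites on H3K27me3 carried the rabbit antibody at 82.1%, 22 points above EED-bound sites without H3K27me3 (interval of the difference -29.1 to -13.7), while the mouse antibody was at 87.2% there, a difference with an interval of -6.89 to 5.72.

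**Figure D3:**
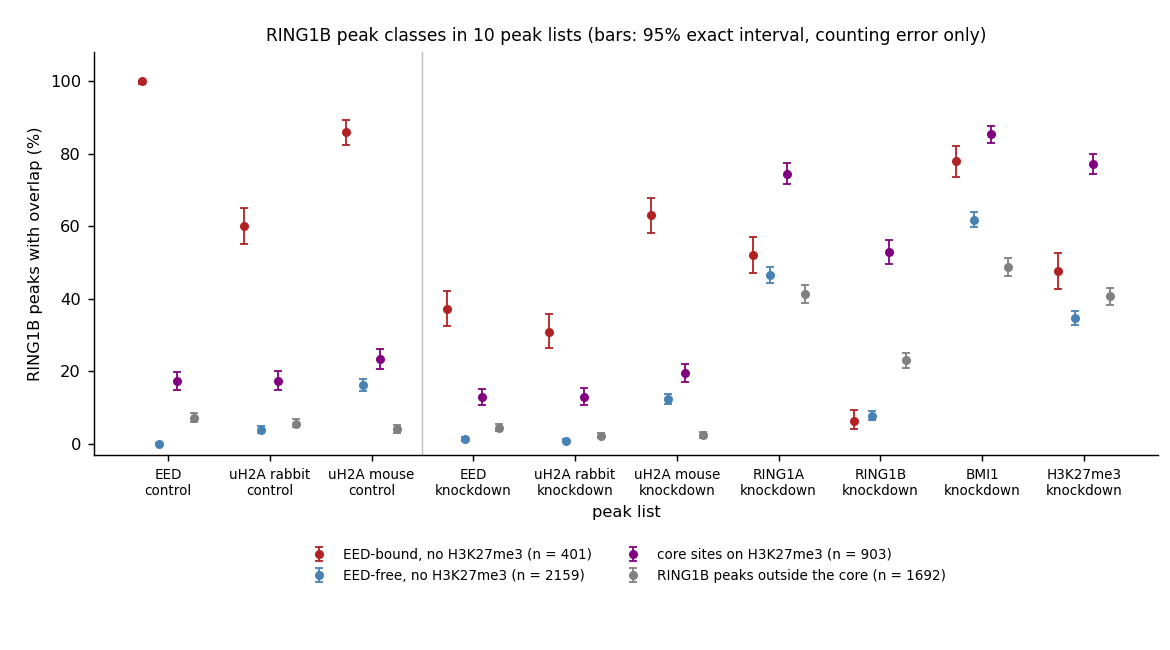
Share of RING1B control peaks (%) that overlap a peak in each of 10 lists, for EED-bound and EED-free core sites without H3K27me3, core sites on H3K27me3 and RING1B peaks outside the core, with 95% exact intervals for counting error. EED-bound sites stand at 86.0% for the uH2A mouse antibody, and both groups without H3K27me3 stand lowest for RING1B in knockdown cells, at 6.48% and 7.87%.

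In knockdown cells the 3 PRC1 proteins parted at these sites. A RING1B knockdown peak overlapped 196 of 2560 sites (7.66%, interval 6.66 to 8.75), against 20.7% of all RING1B peaks. BMI1, by contrast, had a knockdown peak at 1648 sites (64.4%, 62.5 to 66.2) and RING1A at 1216 (47.5%, 45.5 to 49.5). Over all RING1B peaks these shares were 62.9% and 50.2%, so the BMI1 and RING1A shares were near those of the RING1B list as a whole and the RING1B share was below it. The most frequent outcome was BMI1 with RING1A and without RING1B, at 840 sites (32.8%), against 27.6% of all RING1B peaks and 27.9% of core sites on H3K27me3. BMI1 was the sole one of the 3 at 630 (24.6%, against 16.6% of all RING1B peaks and 6.20% of core sites on H3K27me3). All 3 had a peak at 162 sites (6.33%, against 15.2% and 41.2%), RING1B alone at 7, and none of the 3 at 691 (27%, against 28.2% and 8.53%). Block size moved these shares, since without blocks of 5 or more sites RING1A was at 27%, RING1B at 2.76% and BMI1 at 47.9% of 434 sites. With overlap of 50% of the peak RING1B was at 4.23%, with peaks within 1000 bp at 13.2%, and at sites over 10000 bp from H3K27me3 at 4.78%.

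Core sites on H3K27me3 kept RING1B at 52.9% (478 of 903), 45.3 points more than sites without H3K27me3 (interval of the difference -48.7 to -41.8). They also had more BMI1 (85.3%) and RING1A (74.5%) knockdown peaks. Sites without H3K27me3 minus sites on it gave -20.9 points for BMI1 (-23.8 to -17.8) and -27 for RING1A (-30.4 to -23.5). RING1B peaks that lacked both H3K27me3 and a core partner were closer, with 10.8% of 1282 kept, a difference of -3.19 points (-5.25 to -1.26). Leaving out windows of 100 kb, and their neighbours, in which at least 2 other antibodies had control peaks over 10 times their list's median height, the gap to core sites on H3K27me3 was -32.3 points.

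RING1B was also compared within classes of control height. All RING1B peaks with a height above 0 were put in 4 height classes of equal size. In the class from 64.6 to 84.5, RING1B was kept at 5.05% of 673 sites without H3K27me3 (interval 3.52 to 6.99), 19.1% of 157 core sites on H3K27me3 (13.3 to 26.1) and 24.9% of 301 peaks outside the core (20.1 to 30.2). In the tallest class it was kept at 24.9% of 442 sites without H3K27me3 (interval 20.9 to 29.2), 73.3% of 516 core sites on H3K27me3 (69.2 to 77.0) and 58.7% of 172 peaks outside the core (51.0 to 66.2). Heights in that class were not alike, as sites without H3K27me3 reached 531 and core sites on H3K27me3 reached 6818. The peaks outside the core are also mixed, since 24.2% of them overlapped a control H3K27me3 peak. These were not set apart by height. Over all heights, peaks outside the core without H3K27me3 kept RING1B at 10.8% of 1282, against 7.66% of the sites. BMI1 in the tallest class was at 93.2%, 97.5% and 93.0%, and RING1A at 91.2%, 85.3% and 86.0%.

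**Figure D4:**
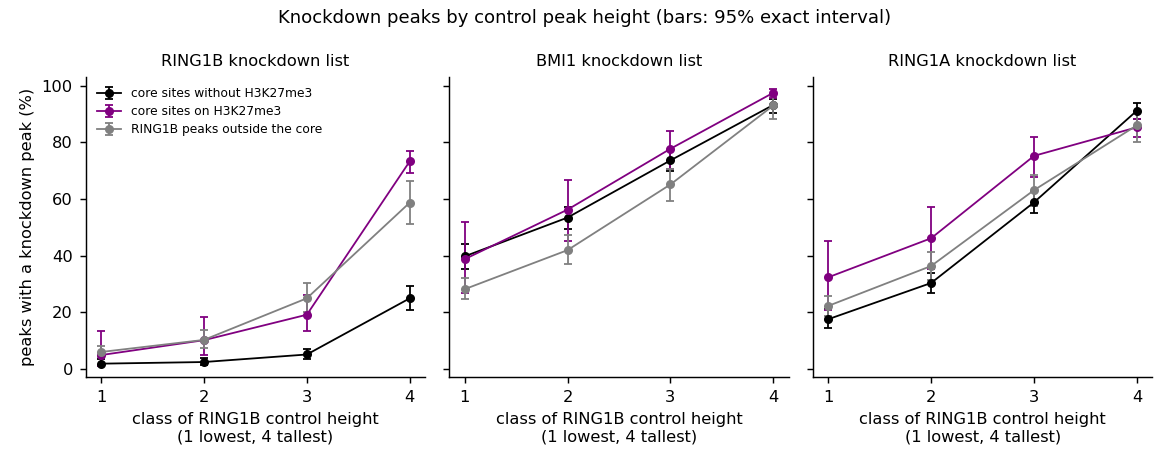
Share of RING1B control peaks (%) with a RING1B, BMI1 or RING1A knockdown peak, by class of RING1B control height (1 lowest, 4 tallest), for core sites without H3K27me3 (black), core sites on H3K27me3 (purple) and peaks outside the core (grey), with 95% exact intervals. For RING1B the black points stay lowest in all 4 classes and reach 24.9% in the tallest, while for BMI1 the 3 classes reach 93.0% to 97.5%. The grey points include peaks with control H3K27me3, 24.2% of those outside the core.

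The RING1B knockdown list held 1739 peaks with a median height of 30.0 above 0, and the control list had a median of 64.6. The medians of BMI1 were 68.9 in control and 67.0 in knockdown and those of RING1A 59.0 and 53.0. Without read totals these heights cannot be put on 1 scale, and their part in the loss of RING1B peaks was not tested. With peaks in every list at least as tall as the control median of their antibody, 1234 sites met the rule. Of these, 1068 were among the 2560, and RING1B was kept at 0.162% of the 1234. That cut, 64.6 for RING1B, lies above the knockdown median of 30.0, so it removes most of the knockdown list and the low share says nothing further. A RING1B knockdown peak lay within 1000 bp, without overlap, of a further 226 sites (8.83%). This was near the 9.16% over all RING1B peaks, and the share was 12.7% of core sites on H3K27me3.

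Seen from each antibody's own list, core sites without H3K27me3 were places where every antibody tested but RING1B kept a larger share of its control peaks than elsewhere in its list. Core sites on H3K27me3 kept still more, with 85.0% of BMI1, 75.9% of RING1A, 76.7% of uH2A mouse, 58.2% of uH2A rabbit and 64.2% of EED control peaks, so this was not particular to sites without H3K27me3. H3K27me3 has no control peak there by the rule, and 3.81% of its whole control list was kept. Of the BMI1 control peaks on them 64.9% were kept, against 15.5% elsewhere in that list and 21.1% of the whole list. RING1A kept 50.1% there and 2.07% elsewhere (whole list 4.07%), a difference of 48.1 points (46.0 to 50.1). The uH2A mouse antibody kept 64.8% and 9.63% (whole list 10.7%), EED 38.4% and 4.74% (whole list 5.79%), and the uH2A rabbit antibody 41.6% and 28.7% (whole list 28.8%). RING1B went the other way, with 7.66% kept on the sites and 33.5% elsewhere, a difference of -25.8 points (-27.9 to -23.7). Elsewhere is not alike between antibodies. For RING1B it holds only other RING1B peaks, among them core sites on H3K27me3 at 52.9%, and for the other antibodies mostly peaks without RING1B. Against RING1B peaks outside the core without H3K27me3 the difference was -3.19 points (-5.25 to -1.26). Of RING1A knockdown peaks 31.3% lay on the sites, against 4.16% of control peaks, and the shares were 26.3% against 11.3% for BMI1, 13.4% against 3.10% for EED and 7.30% against 2.0% for uH2A mouse. For uH2A rabbit they were 1.23% and 1.16%, and for RING1B 12.5% and 49.7%.

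**Figure D5:**
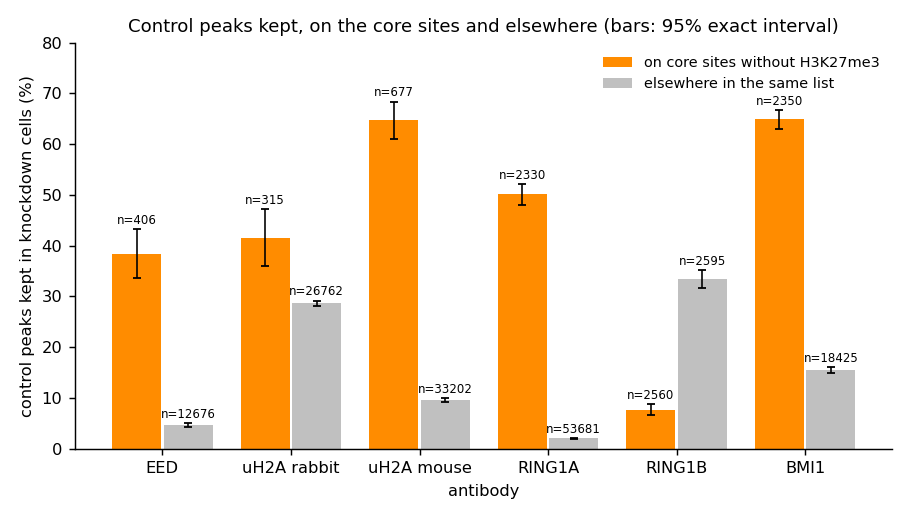
Share of control peaks (%) that overlap a knockdown peak of the same antibody, for peaks on core sites without H3K27me3 (orange) and elsewhere in that list (grey), with the number of peaks and 95% exact intervals. The orange bar is higher for EED, both uH2A antibodies, RING1A and BMI1, and lower for RING1B, at 7.66% against 33.5%. For RING1B the grey bar holds only other RING1B peaks, core sites on H3K27me3 included.

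H3K27me3 peaks were listed in knockdown cells at 940 of the sites (36.7%, interval 34.8 to 38.6), against 45.1% of all RING1B peaks. By the rule none had one in control cells. Among RING1B peaks outside the core that also lacked H3K27me3 in control cells the share was 28.8%, 7.94 points less (4.8 to 11.0). From the side of the mark, 1022 of the 4205 H3K27me3 knockdown peaks lay on these sites (24.3%). Of the 2843 at positions without a control peak, 1018 did (35.8%). The sites lack a control peak by the rule, so leaving out knockdown peaks with one raises the share. The same shares for other RING1B peaks are not given. A BMI1 or RING1A knockdown peak was present at 908 of the 940 sites (96.6%), against 72.7% of all the sites, and RING1B at 147 (15.6%), against 7.66%. Among core sites on H3K27me3 with a knockdown H3K27me3 peak these shares were 97.6% and 65.4%, and over all such RING1B peaks 94.5% and 41.7%. The share with H3K27me3 was 60.8% with peaks no lower than the control median of their antibody, and 23.5% without blocks of 5 or more sites. Median H3K27me3 height was 61.4 in the knockdown list and 41.3 in the control list, and the part of that shift in these peaks was not tested. The cut at the control median thus lies below the knockdown median, and the 60.8% cannot be read as a rise. That share is also of 1234 sites, of which 1068 were among the 2560. The others overlapped a control H3K27me3 peak below the cut. By RING1B control height the share was 12.9% of sites in the lowest class and 77.6% in the tallest.

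RING1B was kept at 26 of 401 EED-bound (6.48%) and 170 of 2159 EED-free sites (7.87%), a difference of -1.39 points whose interval includes 0 (-3.75 to 1.65). Its sign depended on the sites and on the overlap. It was -10.4 points in the tallest height class (-18.1 to -1.37), -7.02 at lengths of 175 to 250 bp (-10.1 to -1.53), -2.60 with overlap of 50% of the peak (-4.01 to -0.227) and 2.97 with peaks within 1000 bp (0.0853 to 6.13). BMI1 knockdown peaks were at 78.1% of EED-bound and 61.8% of EED-free sites, 16.2 points apart (11.5 to 20.5). H3K27me3 knockdown peaks were at 47.6% and 34.7%, 12.9 points apart (7.69 to 18.2), and RING1A at 52.1% and 46.6%, 5.48 points apart (0.156 to 10.8). Length went along with these differences. For RING1A the difference was below 0 in each of the 4 length classes, from -4.46 to -2.26 points with intervals that include 0, and it was -12.2 points in the second height class (-19.9 to -2.54), so the direction over all sites did not hold within length. With overlap of 50% of the peak it was -3.20 points, and for H3K27me3 6.54. Among sites over 250 bp the difference was 1.09 points for BMI1 (-4.38 to 5.07) and 1.76 for H3K27me3 (-6.92 to 9.46), while for BMI1 it was 17.1 points (5.97 to 28.1) at 75 to 100 bp. Outside blocks of 5 or more sites, it was 4.20 points for BMI1, 1.78 for H3K27me3 and -4.07 for RING1A.

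EED itself kept a peak at 149 of the 401 EED-bound sites (37.2%, interval 32.4 to 42.1), and 29 EED-free sites (1.34%) had an EED peak in knockdown cells. Over all sites EED knockdown peaks were at 6.95%, against 7.20% of all RING1B peaks. EED-bound sites on H3K27me3 kept EED more often, at 64.1% of 156, a difference of -26.9 points (-35.4 to -17.8). Where EED came with both uH2A antibodies it was kept at 114 of 228 sites, against 20 of 117 (17.1%) with the mouse antibody alone and 10 of 43 (23.3%) without uH2A.

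The uH2A mouse antibody had a knockdown peak at 519 sites (20.3%, against 14.3% of all RING1B peaks) and the rabbit antibody at 144 (5.62%, against 5.84%). Of the sites marked in control cells, the mouse antibody still marked 444 of 694 (64.0%) and the rabbit antibody 131 of 326 (40.2%). With EED these shares were 72.5% of 345 and 47.7% of 241, and without EED 55.6% of 349 and 18.8% of 85. Of the sites without a control peak, 75 of 1866 had a mouse antibody peak (4.02%) and 13 of 2234 a rabbit antibody peak (0.582%) in knockdown cells. Matching shares of all RING1B peaks with or without the control peak are not given, so whether these rates are particular to the sites was not tested.

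Sites in the proximal and distal parts of chromosome 14 differed, split here at 21 Mb, a boundary chosen after the values were seen. The intervals of these differences therefore do not test the split. Shares over all RING1B peaks of each part are not given, so whether the contrast is particular to the sites was not tested. The 168 sites up to it (19073076 to 20153050) had EED at 8.93% and the uH2A mouse antibody at 12.5% in control cells. The 334 beyond it (28770526 to 106791000) had 25.7% and 56.6%, differences of 16.8 (9.95 to 22.8) and 44.1 points (36.1 to 50.8). In knockdown cells the mouse antibody was again at 56.6% of the distal sites and at 10.1% of the proximal ones. BMI1 went the other way, at 36.8% and 76.2%, a difference of -39.4 points (-47.0 to -30.6), and so did H3K27me3, at 12.6% and 45.2%. RING1B was kept at 4 of the 334 and 3 of the 168. In the block at 34772701 to 35958775, with 45 sites, BMI1 had 337 control and 37 knockdown peaks and RING1A 469 and 62, while the uH2A mouse antibody had 179 and 181.

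Single sites show these outcomes in the height of each list's peak, which ranks peaks within a list and is not comparable between lists. There were 5 sites, all EED-bound, that had a peak in each of the 10 lists the rule did not use. On chromosome 20 at 29653076 to 29653550 the control heights were 196 for RING1B, 394 for BMI1, 423 for RING1A, 82.4 for EED, 87.8 for uH2A mouse and 49.2 for uH2A rabbit. Its knockdown heights were 40.6 for RING1B, 233 for BMI1, 122 for RING1A, 173 for H3K27me3, 60.6 for EED, 87.3 for uH2A mouse and 38.0 for uH2A rabbit. All 7 antibodies therefore had a peak there after the knockdown. The others lay on chromosome 5 (34189351 to 34193625), chromosome 21 (11143576 to 11144400 and 11109126 to 11112425) and chromosome 4 (52826 to 55125).

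Other EED-bound sites had no RING1B knockdown peak while most other antibodies still had one. On chromosome 14 at 19612726 to 19613450 the control heights were 180 for RING1B, 253 for EED, 477 for uH2A rabbit, 456 for BMI1 and 247 for RING1A. In knockdown cells no RING1B peak overlapped it, the nearest being 1525 bp away, and the heights were 131 for EED, 391 for uH2A rabbit, 340 for BMI1, 97.1 for RING1A and 216 for H3K27me3. Each knockdown list but that of RING1B thus marked the site. The same held on chromosome 1 at 143429501 to 143429925, while on chromosome 21 at 10204301 to 10205250 the EED peak was missing as well. On chromosome 17 a pair of neighbouring sites at 41400551 to 41400775 and 41400826 to 41401150 lost RING1B but kept EED, uH2A, BMI1 and RING1A, and had no H3K27me3 peak in either cell line. The pair had the same heights in each other list, so it is not 2 separate cases. The nearest RING1B knockdown peak was 725 and 1000 bp away. RING1B was kept at EED-bound sites on chromosome 9 (68418451 to 68418575, height 203 in control and 62.4 in knockdown), chromosome 15 (26003726 to 26003975, 166 and 34.5) and chromosome 5 (21496201 to 21496475, 157 and 27.5).

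Among EED-free sites the tallest with RING1B kept was on chromosome 19 at 36066476 to 36066650, with heights of 531 for RING1B, 1148 for RING1A and 611 for BMI1 in control cells. In knockdown cells it had 43.2, 130 and 355, and an H3K27me3 peak of 295, with no EED or uH2A peak in either cell line. A second site on chromosome 19 (37785276 to 37786850) and sites on chromosomes 7 (56442051 to 56442400), 8 (86567376 to 86568150) and 14 (36417501 to 36417750) had the same 4 knockdown peaks, of RING1B, BMI1, RING1A and H3K27me3. The tallest that lost RING1B was on chromosome 12 at 20704326 to 20704475, where the control heights of RING1B, RING1A and BMI1 were 404, 450 and 439. In knockdown cells it had a BMI1 peak of 261 and an H3K27me3 peak of 216 and no RING1A peak. On chromosome 2 at 230045476 to 230045600 a single knockdown peak remained, of H3K27me3 (121), while on chromosome 17 at 81165026 to 81165225 BMI1 (300), RING1A (74.0) and H3K27me3 (159) had peaks. The nearest RING1B knockdown peak was 17172175, 9194350 and 12088150 bp from these 3 sites. It was much nearer to the other 2 of the tallest 5, at 325 bp on chromosome 17 (41400151 to 41400375) and 400 bp on chromosome 20 (29611151 to 29611425).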

How the data were processed

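The submitters' processing notes name Bowtie and the hg19 build for the reads of 40 nucleotides. Version, settings and any input library: not given in the sources used here. HPeak is the caller named by the deposited lists, which are 1 per library and hold from 1372 to 56011 peaks. The height in the deposited lists was taken as a signal, from its values. The score in the deposited lists and the offset within the peak, other columns of the deposited lists, were not used. In the EED and uH2A lists the last chromosome numbers were taken as X and Y. Without read totals, depth per sample is unknown.

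Overlap meant at least 1 bp in common. Shares carry Clopper-Pearson and differences Newcombe intervals at the 95% level, and no p-value was computed. A 100 kb window and its neighbours counted as high-signal where 2 or more antibodies, RING1B not included, had a control peak over 10 times their median height. The sites and lists were chosen with earlier results of these data known. Named sites were the 5 tallest EED-bound and EED-free sites with RING1B kept and lost (outside high-signal windows first), the 3 nearest to H3K27me3 on either side of the rule, the 5 largest blocks and the sites in all 10 other lists. The alternatives were overlap of 50% of the peak, peaks within 1000 bp, peaks no lower than the control median, RING1B height above 0, no high-signal windows, autosomes only and no H3K27me3 peak within 10000 bp. Leaving out chromosome 14 or blocks of 5 or more sites was added after the data were seen. The overlap code was tested on simulated lists. Sequences and gene names are not reported, since the peaks are in hg19 and no genome of that build was used here. Python 3.11.15, numpy 2.4.6, pandas 2.3.3, scipy 1.17.1 and matplotlib 3.10.9 were used.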

Additional observations from a re-analysis of the deposited data

How the results depend on the processing

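The limits are 1 library per group, unknown depth and sites that share blocks. No paired analysis was possible because each group has 1 library and the shares come from no test. Of 162 values, from 18 results under 9 alternatives, 95 stayed within the counting interval, or within 1.5 times for the number of sites, and 67 did not, while on autosomes only all 18 did. Among differences 3 changed sign. The cause of the moves was not tested. Some alternatives also changed which sites met the rule. Of 2552 sites with overlap of 50% of the peak, 2427 were among the 2560. Of 2761 with peaks within 1000 bp, 2323 were. Percentages below are shares of sites in the order EED control, uH2A rabbit and mouse control, then knockdown EED, uH2A rabbit, uH2A mouse, RING1A, RING1B, BMI1 and H3K27me3, and differences are EED-bound minus EED-free in points unless said otherwise. With overlap of 50% of the peak, the shares were 12.1, 9.68, 23.4, 4.0, 3.45, 16.8, 42.8, 4.23, 60.5 and 30.3%, and the differences 65.3 for control uH2A mouse, 6.54 for H3K27me3 and -3.20 for RING1A, which changed sign. With peaks within 1000 bp the shares were 25.6, 20.5, 37.0, 12.8, 10.5, 28.7, 62.5, 13.2, 74.9 and 51.4%, the differences 61.7 for control uH2A rabbit and 2.97 for RING1B, which changed sign, and the RING1B gap to core sites on H3K27me3 -50.5. Keeping peaks no lower than the control median drops chromosomes 22, X and Y of 1 library set. Under that cut 1234 sites met the rule, of which 1068 were among the 2560. The others overlapped a control H3K27me3 peak below the cut. Over the 1234 sites EED was at 19.1% and uH2A mouse at 30.6%. Knockdown EED was at 11.2%, uH2A mouse at 22.3%, RING1A at 39.1%, RING1B at 0.162%, BMI1 at 67.0% and H3K27me3 at 60.8%. The differences were then 21.4 for BMI1 and 6.06 for H3K27me3, and the RING1B gap -39.8. This cut lies above the median height of the RING1B knockdown list and below that of H3K27me3, so it falls unevenly on the lists. With RING1B height above 0, uH2A mouse was at 29.5% in control and 22.3% in knockdown cells, and without high-signal windows the RING1B gap was -32.3. With no H3K27me3 peak within 10000 bp, 1653 sites had knockdown uH2A mouse at 22.3%, RING1A at 42.7%, RING1B at 4.78%, BMI1 at 61.4% and H3K27me3 at 32.3%. The RING1B gap was then -28.1, but to another class. Core sites with H3K27me3 within 10000 bp were counted there with those on it, so this gap is not like the others. The last 2 alternatives were chosen after the data were seen. Without chromosome 14, uH2A mouse was at 23.5% in control and 15.2% in knockdown cells, RING1B at 9.18%, BMI1 at 67.9% and H3K27me3 at 39.9%. Without blocks of 5 or more sites, 434 sites had control uH2A rabbit at 15.2%, and knockdown EED at 4.61%, uH2A rabbit at 7.37%, uH2A mouse at 15.2%, RING1A at 27%, RING1B at 2.76%, BMI1 at 47.9% and H3K27me3 at 23.5%. The differences there were 43.0 for control uH2A rabbit, 4.20 for BMI1, 1.78 for H3K27me3 and -4.07 for RING1A, which changed sign. The RING1B gap was -50.2, to all core sites on H3K27me3, since those inside the blocks were not left out.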

Other observations

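A listed height of 0 marked whole chromosomes. In both cell lines, every H3K27me3, BMI1, RING1A and RING1B peak on chromosomes 22, X and Y had a height of 0 and no peak elsewhere did, for example 633 of 633 RING1B control peaks on those chromosomes. The lists of EED and uH2A had no height of 0. Among the core sites without H3K27me3, 12 of 401 EED-bound and 268 of 2159 EED-free sites were affected, and they entered no result by height.

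EED-bound sites had peaks in more lists than EED-free sites, but this follows in part from the split. The EED control list is among the 10, so each EED-bound site has a peak in it by definition. EED knockdown peaks, at 37.2% of EED-bound and 1.34% of EED-free sites, are counted too. EED-bound sites were also longer, with a median of 200 against 150 bp, and the part of length was not tested. Of the 10 lists the rule did not use, 415 EED-free sites had a peak in none, and 1929 of the 2159 EED-free sites had one in at most 3. Among EED-bound sites 202 of 401 had a peak in 6 or more of the 10 lists, EED itself included. At equal numbers, 69 EED-bound and 174 EED-free sites had a peak in exactly 4 lists, and 64 and 15 in exactly 6. The same counts are not given for all RING1B peaks.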
